A study of Mus musculus with 6 samples.

Results

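The extracellular matrix genes described here are the collagen chains, the laminin chains and a set of genes for matrix partners, collagen maturation and the stromal cells that make scar. They were taken by symbol alone, as every Col or Lam chain gene of the table together with Nid1, Nid2, Hspg2, Agrn, Dcn, Bgn, Fbn1, Fbln1, Fbln2, Postn, Lox, Loxl1, Loxl2, Pcolce, Serpinh1, Pdgfra, Pdgfrb and Rgs5. This gave 60 of 13960 rows, with 33 collagen chains, 9 laminin chains and 18 other genes. Lum, also on the list of symbols, was not analysed here.

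RNA bound to tagged ribosomes was precipitated from the spinal cord injury site of mice after a contusion of the cord at T8. There were 3 libraries from 7 days and 3 libraries from 3 days after injury, and the question was which RNA differed between those times. All 6 libraries carry the same labels, strain CD45.1 and genotype LysMCre:Rplfl/fl > CD45.1 chimera. LysM-Cre acts in macrophages and other myeloid cells such as neutrophils, and in the RiboTag method Cre turns on an epitope-tagged form of the ribosomal protein Rpl22. The labels give no age and do not say that a library is 1 animal, so the spread behind the p-values is that between libraries and may in part be technical. Neither uninjured cord nor RNA from before the precipitation was analysed here.

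As background, collagens are triple helices built from alpha chains. Fibrillar collagens form the fibres of scar, type IV collagen forms a network with laminin trimers in basement membranes, and FACIT collagens sit on fibre surfaces. Nidogen, perlecan and agrin link or anchor the basement membrane, while the small proteoglycans decorin and biglycan bind fibrils and growth factors. In the injured cord, perivascular and meningeal stromal cells with PDGF receptors are known as main makers of the fibrotic scar, and macrophages are known to gather within it.

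Promoter windows from RefSeq (GRCm38.p6) were found for 43 of the 60 genes, and those of 4 genes that differ in their values below are printed as the 250 bases before a start site, 5′ to 3′ on the gene's strand. Bgn and Agrn are shown as genes lower at 7 days under every alternative fit, Rgs5 as a stromal cell gene that fell, and Postn as the gene whose libraries were all higher at 7 days. Capitals mark matches, on either strand, to CCAAT and TATAAA, the CCAAT and TATA boxes, to GGGCGG, a GC box, and to TGANTCA, an AP-1 motif. The windows are chrX:73483351-73483600 on the plus strand for Bgn, chr4:156197489-156197738 on the minus strand for Agrn, chr1:169655251-169655500 on the plus strand for Rgs5 and chr3:54360857-54361106 on the plus strand for Postn.
Bgn: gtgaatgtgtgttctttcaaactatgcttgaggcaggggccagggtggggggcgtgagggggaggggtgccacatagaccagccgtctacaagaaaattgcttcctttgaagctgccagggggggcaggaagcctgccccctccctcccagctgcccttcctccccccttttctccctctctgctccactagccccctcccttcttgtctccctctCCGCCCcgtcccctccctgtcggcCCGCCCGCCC
Agrn: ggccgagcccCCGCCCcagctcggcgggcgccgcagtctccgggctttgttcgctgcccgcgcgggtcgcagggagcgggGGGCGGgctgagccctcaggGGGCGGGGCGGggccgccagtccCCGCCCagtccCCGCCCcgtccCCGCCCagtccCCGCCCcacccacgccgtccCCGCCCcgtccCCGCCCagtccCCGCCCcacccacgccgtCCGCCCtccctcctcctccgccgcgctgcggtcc
Rgs5: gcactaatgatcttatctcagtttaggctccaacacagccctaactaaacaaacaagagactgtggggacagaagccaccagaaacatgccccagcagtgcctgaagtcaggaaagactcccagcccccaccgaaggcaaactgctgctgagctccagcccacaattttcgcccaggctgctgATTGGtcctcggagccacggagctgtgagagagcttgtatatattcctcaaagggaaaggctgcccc
Postn: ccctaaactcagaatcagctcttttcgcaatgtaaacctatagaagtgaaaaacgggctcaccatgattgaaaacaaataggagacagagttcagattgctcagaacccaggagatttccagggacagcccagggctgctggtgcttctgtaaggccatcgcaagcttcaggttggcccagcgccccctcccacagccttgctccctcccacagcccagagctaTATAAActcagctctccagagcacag

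The Agrn window is dense in GGGCGG in both orientations. The printed Postn window has a TATAAA near its end and none of the other letters, and the Rgs5 window has a single CCAAT on the reverse strand. Postn and Agrn each have a second window that is not printed. That of Postn, chr3:54359017-54359266, has no match to any of these motifs. That of Agrn, chr4:156186260-156186509, has 2 matches to GGGCGG, against 12 in the printed window. Over 49 windows of the matrix genes and 32851 windows of all genes, GGGCGG was found in 63.3% and 32.7%, CCAAT in 30.6% and 33.8%, TATAAA in 8.16% and 12.4%, and TGANTCA in 2.04% and 6.75%. Matches between motifs that overlap are counted for each motif. These are matches of letters and not binding sites.

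FPKM, the unit of the tables, corrects the fragments of a gene for its transcript length and for sequencing depth. Single libraries stood out in the matrix genes. Replicate 2 of 3 days was the highest of its time for 36 of 45 matrix genes, against 40.7% of all genes tested, and replicate 3 of 7 days for 31 of 43 (72.1%), against 32.1%. The summed FPKM of the 45 genes was 248, 257 and 414 at 7 days and 393, 796 and 465 at 3 days, so that replicate 3 of 7 days lies above replicate 1 of 3 days. That was 0.0646%, 0.0634% and 0.103% of the summed FPKM of all genes tested at 7 days, against 0.118%, 0.235% and 0.113% at 3 days.

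Matrix RNA had lower values at 7 days than at 3 days in most of the genes measured, and no gene was called higher. Of the 60 genes, 45 could be tested with limma on log2(FPKM + 1), and calls were made where the p adjusted over all 13042 genes tested was 0.05 or less. On this scale the change of low genes is understated. At 7 days 14 of the 45 were called lower (31.1%) and 0 were called higher. Over all genes tested 20.3% were called lower, 18.8% higher and 39.1% either way. These shares depend on level and were not matched to the matrix genes, many of which are low. Among genes with a mean of 5 FPKM or more, 14.9% were called lower and 28.6% higher. Of the matrix genes 18 reach that mean, with 7 called lower and 0 higher. At an unadjusted p under 0.05 the counts were 20 lower and 1 higher. The share of all genes at that threshold was not computed. It cannot be below the 39.1% called either way, so these counts cannot be read as an excess. The authors' deposited table has a q of 0.05 or less for 20 lower and 1 higher. By that q, 20.7% of all genes tested were lower and 17.8% higher.

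The 14 genes that fell were Col2a1, Col5a3, Col4a2, Col16a1, Lama1, Nid1, Agrn, Bgn, Dcn, Fbln2, Lox, Pdgfra, Pdgfrb and Rgs5. Collagens gave 4 of 25 (16%), a share no higher than in all genes tested, laminins gave 1 of 4 and the other named genes 9 of 16. The fitted change was below 0 in 42 of 45 genes (93.3%), beside 52.4% of all genes tested, and its median was -0.62 on the log2 scale, beside -0.04. The genes of that background were not matched on level. With a mean of 5 FPKM or more the medians were -0.66 for matrix genes and 0.155 for all genes. With a pseudocount of 0.1 the median was -1.01. All 3 libraries of 7 days lay below all 3 of 3 days in 20 of the 45 genes and above them in 1, Postn, beside 28.6% and 26.8% of all genes tested. With 3 libraries a time no exact test can reach a p under 0.1, and limma's calls borrow their variance from all genes.

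In 6 of the 14 genes, Agrn, Bgn, Col16a1, Col2a1, Lama1 and Nid1, the call stood under every alternative limma fit that tested them. The other 8 lost it in some fits. The libraries whose omission ended the call are given with each gene. Quantile normalization also ended it for Col4a2, Col5a3, Fbln2, Lox, Pdgfra, Pdgfrb and Rgs5, and centring on the median gene for Col5a3. Under quantile normalization 7 of the 45 genes were called lower and 2 higher, beside 13.9% and 17.8% of all genes, and the median was -0.31. Without replicate 2 of 3 days 10 genes were called lower and 1, Col9a2, higher, beside 17.7% and 16% of all genes. Without replicate 3 of 3 days 9 were lower, and without replicate 1 or replicate 2 of 7 days 6 each, beside 16.9%, 13.7% and 13% of all genes. Without both replicate 3 of 7 days and replicate 2 of 3 days, a fit added after seeing the data, 9 were lower and 0 higher, beside 12.1% and 10% of all genes, with a median of -0.62. In the authors' mm10 coordinates these 6 loci are chr4:156165095-156197414 (Agrn), chrX:73483637-73496058 (Bgn), chr4:130066857-130099250 (Col16a1), chr15:97979874-98000405 (Col2a1), chr17:67768401-67807863 (Lama1) and chr13:13437576-13512254 (Nid1). In bulk RNA such as this, fewer cells of a type and less RNA per cell cannot be told apart.

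**Figure D1:**
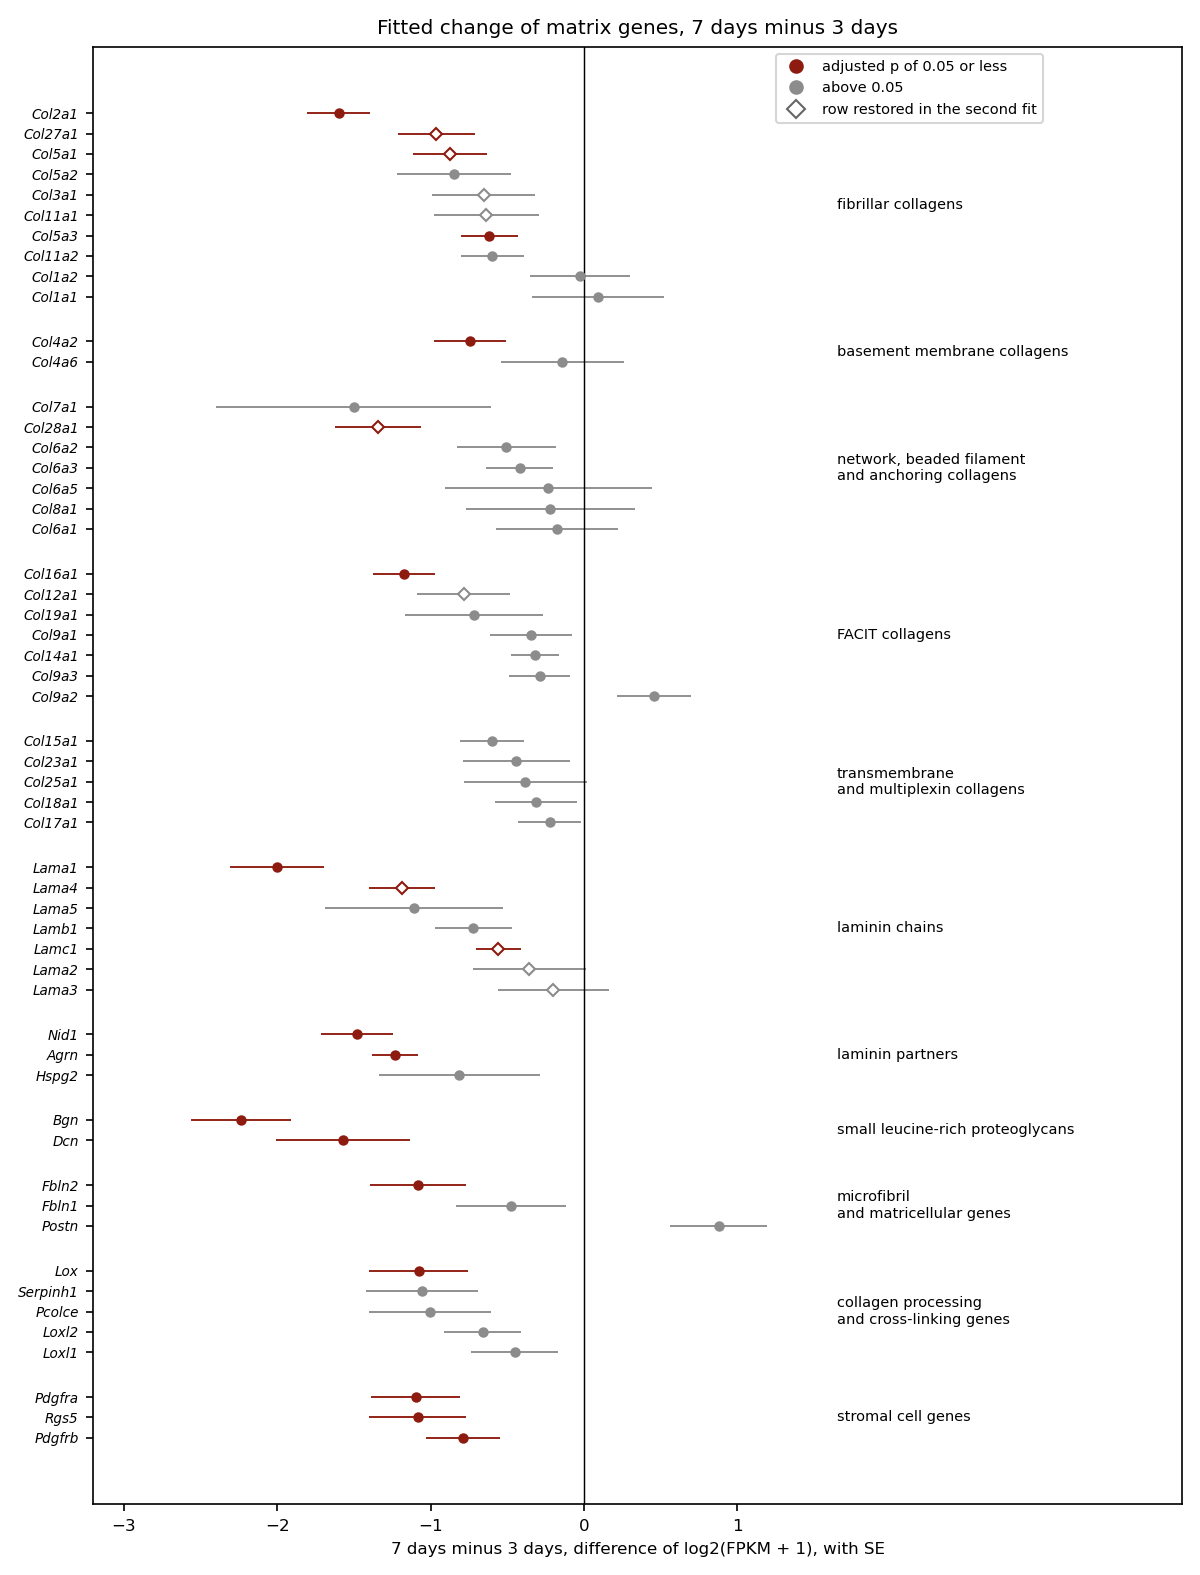
Fitted difference of log2(FPKM + 1), 7 days minus 3 days, for matrix genes in groups of role, with bars of 1 SE on either side. Filled points are genes tested and open diamonds the 10 restored rows, red where the adjusted p is 0.05 or less; all red points lie left of 0, while Postn lies furthest to the right at 0.88.

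Markers of other cells than macrophages were measured in the libraries, most with lower sums at 7 days. Macrophage markers summed to between 2063 and 2280 FPKM at 7 days and between 1588 and 1955 FPKM at 3 days, with 4 of 8 tested called higher and 3 lower. C1qa carries most of that gap, with 847, 1002 and 1052 FPKM at 7 days and 394, 499 and 615 FPKM at 3 days. Without C1qa the macrophage sums of the times overlap. Of all genes tested 18.8% were called higher and 20.3% lower. Of fibroblast markers outside the matrix genes, 5 of 9 were called lower and 0 higher. Without Pdpn, which takes most of that sum, they summed to between 8.31 and 15.3 FPKM at 7 days and between 18.5 and 40.4 FPKM at 3 days, with replicate 2 of 3 days highest.

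Beside 20.3% of all genes tested, called lower were 2 of 7 pericyte and smooth muscle markers, 7 of 9 endothelial, 3 of 7 Schwann, 5 of 6 oligodendrocyte precursor, 6 of 8 astrocyte, 7 of 7 oligodendrocyte and 8 of 8 neuron markers. Of the endothelial and Schwann markers, Flt1 and Egr2 were called higher, beside 18.8% of all genes. Summed pericyte and smooth muscle markers were between 14.8 and 35.3 FPKM at 7 days and between 39.2 and 100.4 FPKM at 3 days, and astrocyte markers between 97.8 and 122 FPKM at 7 days and between 204 and 576 FPKM at 3 days. Of 4 neutrophil markers, 1 was higher and 2 were lower. No list had a tested marker at 0 in all libraries. Where this RNA came from, and its part in the matrix results, was not tested.

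**Figure D2:**
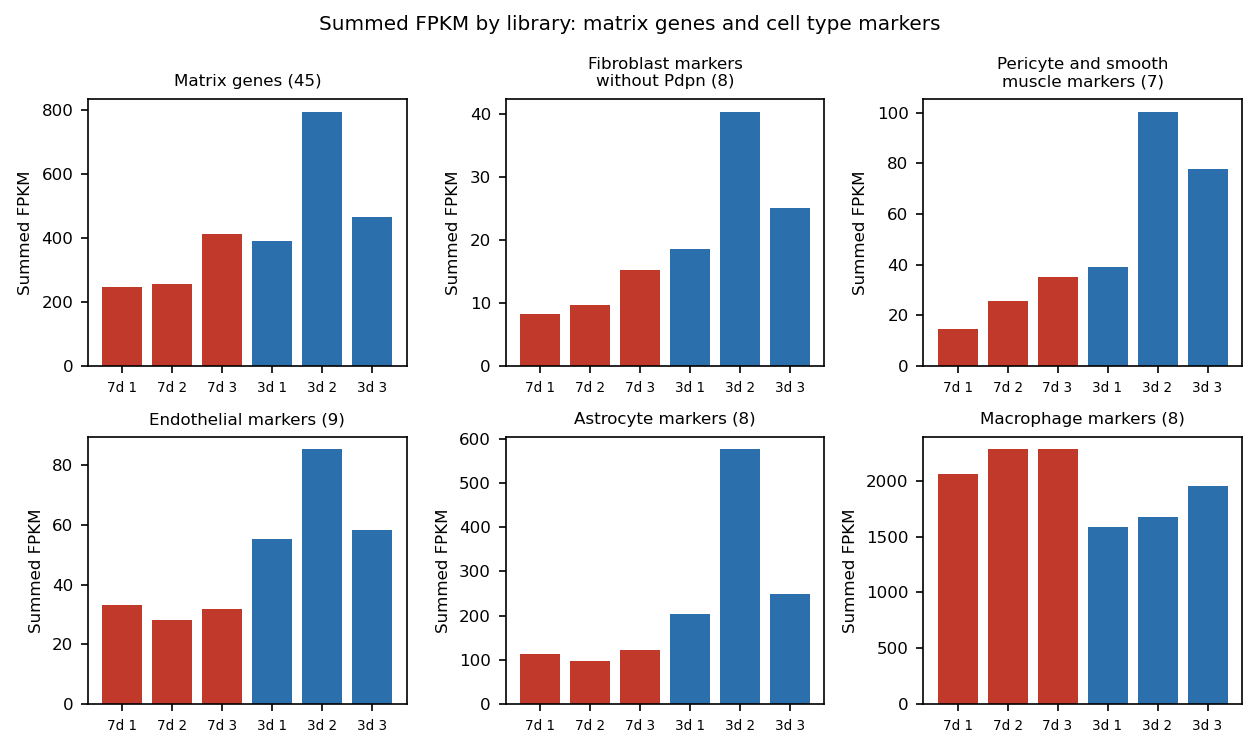
Summed FPKM in each library of the 45 matrix genes and of 5 marker lists, with the number of genes in brackets, 7 days in red and 3 days in blue, each axis from 0. The fibroblast sum, taken without Pdpn, and the pericyte, endothelial and astrocyte sums are lower at 7 days in every library. The macrophage sum is higher, mostly through C1qa. Replicate 2 of 3 days is the highest library for matrix, fibroblast (without Pdpn), pericyte, endothelial and astrocyte genes.

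Type I collagen, the main fibre protein of scar, did not pass the test in either of its genes. At 7 days Col1a2 had 84.1, 69.3 and 136 FPKM, against 67.5, 144 and 86.4 FPKM at 3 days. The times overlap, and replicate 2 of 3 days is the highest library. Its fitted change was -0.03 ± 0.33 (SE, adjusted p = 0.949), the means being 96.5 ± 35.2 FPKM at 7 days, against 99.4 ± 40.0 FPKM at 3 days (SD, n = 3 each), and the sign turned without that library (0.28) and with libraries centred on the median gene (0.0561). Col1a1, its partner chain, had 11.9, 13.2 and 24.5 FPKM at 7 days and 9.27, 29.2 and 11.4 FPKM at 3 days. These also overlap, with a fitted change of 0.09 ± 0.43 (adjusted p = 0.875) that turned to -0.21 without replicate 3 of 7 days. With SEs of this size, changes well above the fitted values in either direction could not have been called.

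Of the other fibrillar collagens, which set fibre diameter or belong to cartilage, 2 of 4 tested were called lower. This and each count of a role group below stand beside 20.3% of all genes tested called lower, and the groups are small. Col2a1, the cartilage type II collagen, had 0.0608, 0.170 and 0.0909 FPKM at 7 days, against 1.59, 2.94 and 2.69 FPKM at 3 days. The libraries of 7 days are all low and do not overlap those of 3 days. Col2a1 fell by 1.60 ± 0.21 on the log2 scale (adjusted p = 0.00163), and the mean of 3 days was 22.5 times that of 7 days. Col5a3, a minor type V chain, was under 1 FPKM in every library, with a mean of 0.178 FPKM at 7 days and 0.801 FPKM at 3 days and a fitted change of -0.62 (adjusted p = 0.0345). Its call was lost without replicate 1 of 3 days and without replicate 1 or 2 of 7 days, and its adjusted p ran from 0.0182 to 0.66 over the alternatives.

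Col5a2, the type V chain that starts fibrils with type I collagen, was the third most abundant of the tested genes at 3 days. It had 25.7, 26 and 45.9 FPKM at 7 days and 37.1, 99.7 and 50.5 FPKM at 3 days. Only replicate 3 of 7 days reaches into the range of 3 days. Its fitted change of -0.85 did not pass (adjusted p = 0.106), while the authors' deposited q was 3.13e-04. Col11a2, a minor type XI chain, had a mean of 0.314 FPKM at 7 days and 1.01 FPKM at 3 days (adjusted p = 0.0553).

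Of the basement membrane collagens, the type IV chains, 2 could be tested. Col4a2 had 2.64, 1.75 and 3.12 FPKM at 7 days, against 3.58, 6.37 and 4.72 FPKM at 3 days, with no overlap. It fell by 0.74 ± 0.23 on the log2 scale (adjusted p = 0.0404). The call was lost when any one library other than replicate 1 of 3 days was left out, with adjusted p from 0.0527 to 0.125, in a range of 0.0301 to 0.142 over all alternatives. Col4a6 was listed at 0 in replicate 2 of 7 days and in replicates 2 and 3 of 3 days, and at most 1.66 FPKM elsewhere. Col4a1, the partner chain of Col4a2, starts 21 bases from it on the opposite strand and is among the rows set aside.

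Collagens of networks, beaded filaments and anchoring fibrils gave no call among 6 tested. Col6a1, a chain of the microfibril-forming type VI collagen, was the most abundant of them. It had 13.3, 16.4 and 19.6 FPKM at 7 days and 11.9, 37.9 and 13.7 FPKM at 3 days. Replicate 2 of 3 days stands well above the rest. The fitted change was -0.18 ± 0.40 (adjusted p = 0.738), and without that library it was 0.32 (adjusted p = 0.206, the lowest of a range up to 0.951). The other 5, Col6a2, Col6a3, Col6a5, Col7a1 and Col8a1, had fitted changes between -1.50 for Col7a1 and -0.22 for Col8a1, with adjusted p from 0.16 to 0.798.

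Of 6 FACIT collagens tested, 1 fell, Col16a1, a share near the 20.3% of all genes tested. Col16a1, whose protein links fibrils to other matrix, had 7.40, 5.30 and 7.79 FPKM at 7 days, against 16.6, 20.7 and 13 FPKM at 3 days. Every library of 7 days is below every library of 3 days. Its fitted change was -1.18 ± 0.20 (adjusted p = 0.00449), with 2.46 times more at 3 days by the means. Col14a1, a fibril-associated chain, overlapped between times, with a mean of 13.4 ± 1.81 FPKM at 7 days, against 17.1 ± 2.98 FPKM at 3 days (SD, n = 3 each; adjusted p = 0.142).

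Col9a2, a type IX chain, was 1 of the 3 genes with a fitted change above 0, with Postn and Col1a1. It had 0.487, 0.805 and 0.744 FPKM at 7 days and 0.0659, 0.702 and 0 FPKM at 3 days, overlapping through replicate 2 of 3 days. Its adjusted p was 0.169, or 0.0185 without that library, when it was called higher, and 0.00697 under quantile normalization, in a range of 0.00697 to 0.349. The other type IX chains, Col9a1 and Col9a3, had fitted changes of -0.35 and -0.29 and were not called. Col19a1 was listed at 0 in all libraries of 7 days and in replicate 3 of 3 days, with 2.61 and 0.231 FPKM in the other libraries of 3 days (adjusted p = 0.231).

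None of the 5 transmembrane and multiplexin collagens was called. Col18a1, a heparan sulfate collagen of basement membranes and the source of endostatin, was the most abundant. It had 10.8, 7.98 and 11.8 FPKM at 7 days and 10.6, 19.8 and 9.70 FPKM at 3 days, which overlap (-0.31 ± 0.27, adjusted p = 0.372). Col15a1, its close relative, was low, with a mean of 0.158 FPKM at 7 days and 0.744 FPKM at 3 days that did not overlap (adjusted p = 0.0536). Col17a1, Col23a1 and Col25a1 had fitted changes from -0.44 to -0.22.

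Among laminin chains, Lama1 was the 1 of 4 tested that fell, a share near the 20.3% of all genes tested. Lama1, the alpha chain of early and glial basement membranes, had 0.715, 0.236 and 0.873 FPKM at 7 days, against 8.71, 4.74 and 3.57 FPKM at 3 days. All libraries of 7 days are below 1 FPKM and all of 3 days above it. The fitted change was -2.0 ± 0.31 (adjusted p = 0.003) and the mean of 3 days was 9.33 times that of 7 days. The authors' deposited q for Lama1 was 0.0565, which is above 0.05.

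Lamb1, the widespread beta chain, had 0.167, 0 and 0.409 FPKM at 7 days and 0.815, 1.64 and 0.537 FPKM at 3 days. These do not overlap, but the fitted change of -0.72 ± 0.25 missed the threshold (adjusted p = 0.0554), and it was called without replicate 3 of 3 days (adjusted p = 0.0398, in a range of 0.0398 to 0.421). Lama5, the alpha chain of many mature vessel membranes, was listed at 0 in every library of 7 days, against 4.94, 0.686 and 0 FPKM at 3 days (adjusted p = 0.162).

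Of 3 partners of laminin in the basement membrane tested, Nid1 and Agrn fell and Hspg2 was not called. Nid1, nidogen, which bridges laminin and type IV collagen, had 6.33, 7.12 and 9.40 FPKM at 7 days, against 18.1, 32.5 and 20.1 FPKM at 3 days. No library of 7 days reaches the lowest of 3 days. It fell by 1.48 ± 0.23 on the log2 scale (adjusted p = 0.00339).

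Agrn, agrin, a heparan sulfate proteoglycan of basement membranes and synapses, had 3.09, 3.31 and 3.83 FPKM at 7 days, against 9.81, 10.4 and 8.03 FPKM at 3 days. The libraries of each time are close together. It fell by 1.23 ± 0.15 on the log2 scale (adjusted p = 0.0013), with the lowest adjusted p of the 45 genes. Hspg2, perlecan, overlapped, with 1.55, 2.93 and 9.16 FPKM at 7 days and 7.63, 11.5 and 4.15 FPKM at 3 days. Its fitted change was -0.81 ± 0.52 (adjusted p = 0.244), and -1.38 and called lower without replicate 3 of 7 days (adjusted p = 0.0482, in a range of 0.0482 to 0.577).

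Both small leucine-rich proteoglycans fell. Bgn, biglycan, a matrix proteoglycan that also acts on Toll-like receptors, had 11.9, 26.2 and 29.0 FPKM at 7 days, against 81.7, 128 and 101 FPKM at 3 days. The times are far apart, and the means were 22.3 ± 9.19 FPKM at 7 days, against 104 ± 23.5 FPKM at 3 days (SD, n = 3 each). With -2.24 ± 0.32 (adjusted p = 0.00252), Bgn was called lower.

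Dcn, decorin, which binds collagen fibrils and TGF-beta, had 7.48, 10.4 and 11.7 FPKM at 7 days, against 16.3, 64.1 and 27.6 FPKM at 3 days. The times do not overlap, but the libraries of 3 days are spread widely with replicate 2 highest. It fell by 1.57 ± 0.44 on the log2 scale (adjusted p = 0.027). Leaving out replicate 3 of 3 days, or any one library of 7 days, ended the call, with adjusted p from 0.0572 to 0.0825, over a range of 0.00995 to 0.0825 for all alternatives.

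**Figure D3:**
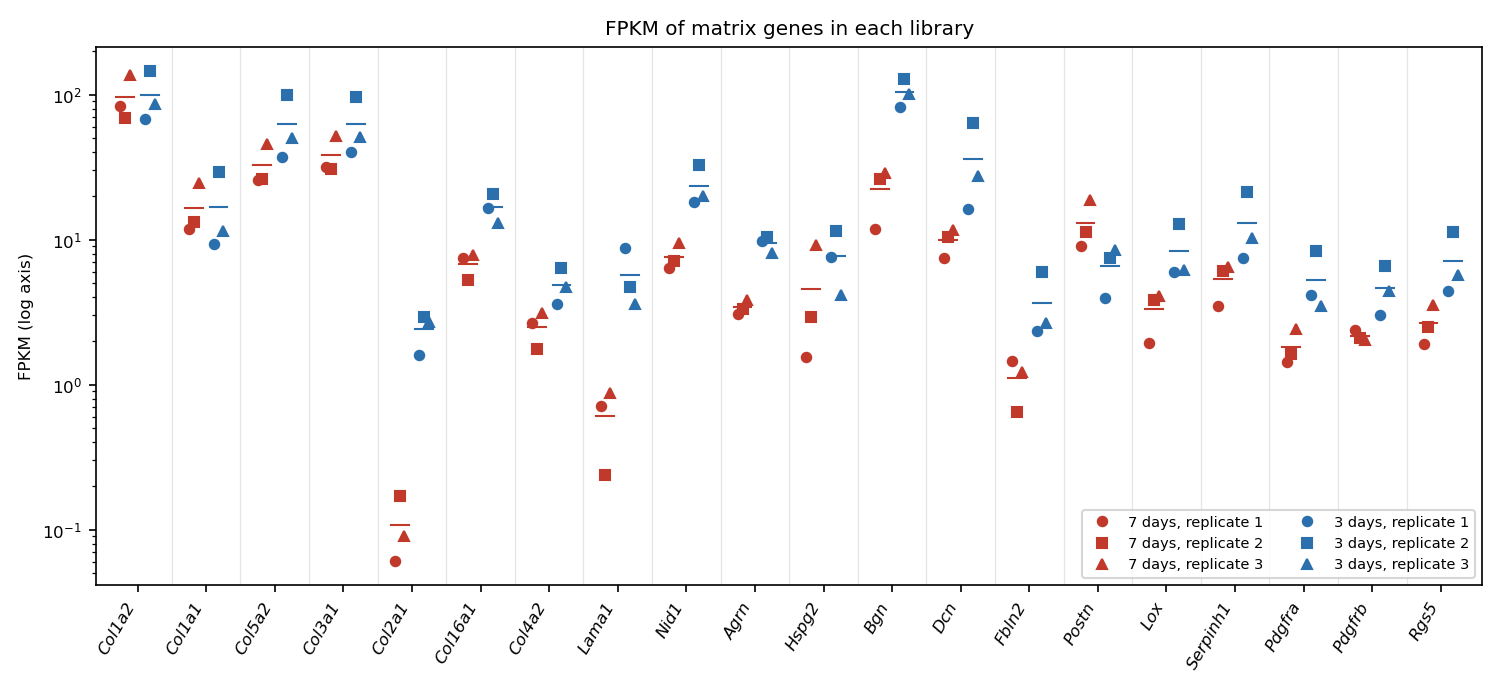
FPKM on a log axis of 20 matrix genes in each library, 7 days in red and 3 days in blue, with marker shapes for replicates and a line at each mean. Bgn, Nid1, Agrn and Lama1 separate the times fully, Col1a2 and Col1a1 overlap, and Postn is the gene with all 3 red points above the blue ones.

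Among microfibril and matricellular genes, Fbln2 fell and Postn differed in the other direction without passing. Fbln2, fibulin, an elastic fibre and basement membrane linker, had 1.46, 0.644 and 1.23 FPKM at 7 days, against 2.34, 6.02 and 2.66 FPKM at 3 days. It fell by 1.08 ± 0.31 on the log2 scale (adjusted p = 0.0304), without overlap. The call ended without replicate 3 of 3 days or without any one library of 7 days, with adjusted p from 0.0507 to 0.102, in a range of 0.0254 to 0.144 over all alternatives. Fbln1 overlapped between times (-0.47, adjusted p = 0.315).

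Postn, periostin, a secreted protein of remodelling scar that supports collagen cross-linking, had 9.10, 11.3 and 18.8 FPKM at 7 days, against 3.96, 7.42 and 8.46 FPKM at 3 days. All libraries of 7 days were above those of 3 days, although the lowest of 7 days is close to the highest of 3 days. The fitted change was 0.88 ± 0.32 (adjusted p = 0.0616), and the mean of 7 days was 1.97 times that of 3 days. It passed under quantile normalization (adjusted p = 0.0489) and with libraries centred on the median gene (adjusted p = 0.0319), and the authors' deposited q was 5.93e-04. Over all alternatives its adjusted p ran from 0.0102 to 0.206. The authors' locus for Postn begins after the start site of the printed window and covers 53.8% of the annotated gene.

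Genes of collagen maturation had fitted changes below 0 in 5 of 5, beside 52.4% of all genes tested. Of the 5, 1 was called lower, a share near the 20.3% of all genes tested. Lox, lysyl oxidase, which cross-links collagen and elastin, had 1.95, 3.85 and 4.09 FPKM at 7 days, against 5.96, 12.7 and 6.19 FPKM at 3 days. Lox fell by 1.08 ± 0.32 on the log2 scale (adjusted p = 0.0343), with no overlap. Without any one library other than replicate 1 of 3 days the call ended, with adjusted p from 0.0546 to 0.0962, in a range of 0.0169 to 0.0962 over all alternatives.

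Serpinh1, the collagen chaperone HSP47 of the endoplasmic reticulum, had 3.50, 6.07 and 6.45 FPKM at 7 days and 7.46, 21.2 and 10.3 FPKM at 3 days. The times do not overlap, and the fitted change of -1.05 ± 0.36 just missed the threshold (adjusted p = 0.0538). It was called lower without replicate 1 of 3 days (0.0294), with a pseudocount of 0.1 (0.0481), over genes of 5 FPKM or more (0.0466) and with centring (0.0473). Over the alternatives it ran from 0.0169 to 0.152. The authors' deposited q for Serpinh1 was 3.13e-04. Pcolce, which enhances procollagen cleavage, Loxl2 and Loxl1 had fitted changes of -1.0, -0.66 and -0.45 with adjusted p of 0.0796, 0.0705 and 0.235.

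All 3 stromal cell genes fell. Pdgfra, the PDGF receptor of fibroblasts and oligodendrocyte precursors, had 1.43, 1.62 and 2.42 FPKM at 7 days, against 4.12, 8.28 and 3.50 FPKM at 3 days. The times do not overlap, and the fitted change was -1.10 ± 0.29 (adjusted p = 0.0231), lost without replicate 1 or 2 of 7 days (adjusted p = 0.0725 and 0.074, in a range of 0.0185 to 0.0767). Pdgfrb, the receptor of pericytes and fibroblasts, had 2.38, 2.10 and 2.03 FPKM at 7 days, against 2.99, 6.56 and 4.44 FPKM at 3 days. It fell by 0.79 ± 0.24 on the log2 scale (adjusted p = 0.0359).

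Rgs5, a pericyte regulator of G protein signalling, had 1.90, 2.50 and 3.55 FPKM at 7 days, against 4.43, 11.2 and 5.67 FPKM at 3 days. It fell by 1.09 ± 0.32 on the log2 scale (adjusted p = 0.032), without overlap. The Pdgfrb call ended when any one library other than replicate 1 of 3 days was left out (adjusted p from 0.068 to 0.097, in a range of 0.0133 to 0.158). For Rgs5 it ended without replicate 2 or 3 of 3 days and without replicate 1 or 2 of 7 days (adjusted p from 0.0598 to 0.0965, the highest of a range that begins at 0.0235).

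The remaining 15 of the 60 genes were set aside because the mean of the 3 library values differs from the deposited mean by more than 1%. That is 25% of the matrix genes, against 6.58% of all rows. In 10 of them, Col3a1, Col5a1, Col11a1, Col12a1, Col27a1, Col28a1, Lama2, Lama3, Lama4 and Lamc1, the deposited log2 change equals that of the library values within 0.01. A second fit restored such rows, a choice made after seeing the data. With them 19 of 55 genes were called lower and 0 higher, beside 20.5% and 18.4% of all genes in that fit. The median log2 change was -0.65, and collagens gave 7 of 31 and laminins 3 of 8.

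Col3a1, type III collagen, which co-assembles with type I in scar, had 31.5, 30.7 and 51.9 FPKM at 7 days and 40.4, 96.9 and 51.3 FPKM at 3 days. The times overlap, and the restored fit gave -0.65 ± 0.33 (adjusted p = 0.154). The authors' deposited q for Col3a1 was 3.13e-04, with a log2 change of -0.73. Lamc1, the gamma chain of most laminins, had 5.29, 5.36 and 6.76 FPKM at 7 days, against 9.06, 7.94 and 10.01 FPKM at 3 days. Its libraries are tight and apart, and it was called lower with -0.56 ± 0.15 (adjusted p = 0.0228).

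Lama4, the alpha chain of vessel walls, had 5.13, 3.13 and 4.93 FPKM at 7 days, against 11.9, 13.2 and 8.61 FPKM at 3 days, and was called lower (-1.18 ± 0.22, adjusted p = 0.00562). Col28a1, a chain known from peripheral nerve, had 0.0919, 0.131 and 0.0684 FPKM at 7 days, against 2.59, 2.35 and 0.794 FPKM at 3 days (-1.34 ± 0.28, adjusted p = 0.00934). Both genes separate the times without overlap. Col5a1 and Col27a1 were also called lower (adjusted p = 0.0262 and 0.0206), and Col11a1, Col12a1, Lama2 and Lama3 were not (adjusted p from 0.0759 to 0.68).

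For the other 5 genes set aside the library values and the deposited means could not be reconciled. Col4a5, Fbn1 and Lamb2 have a deposited log2 change that follows the authors' means, and Col4a1 and Nid2 one that follows neither. As listed, Fbn1, fibrillin, had 19.1, 10.4 and 13.7 FPKM at 7 days and 38.9, 45 and 31.3 FPKM at 3 days. Nid2, the second nidogen, was listed with 0.60, 0.533 and 1.2 FPKM at 7 days and 3.73, 4.42 and 3.18 FPKM at 3 days. Both have lower library values at 7 days, and the authors' deposited log2 changes were -1.51 and -1.52.

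Col4a1 was listed at 5.74, 2.98 and 8.05 FPKM at 7 days and 6.0, 10.9 and 7.53 FPKM at 3 days, which overlap. Col4a5 overlapped too, between 1.47 and 1.93 FPKM at 7 days and between 0.962 and 2.66 FPKM at 3 days. Lamb2, the beta chain of vessels and synapses, had a mean of 19.3 FPKM at 7 days and 23.3 FPKM at 3 days by library values, while the authors' deposited log2 change was 0.14. Its direction therefore depends on which deposited value is read.

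Within each library the makeup of the matrix RNA also differed between times. As a share of the summed FPKM of the 55 genes, fibrillar collagens took 54.4%, 48.9% and 55.2% at 7 days, against 38.4%, 43.1% and 40.8% at 3 days. The shares do not overlap, and Col1a2 carries most of the gap, with 25.9%, 20.8% and 25.5% at 7 days and 12.8%, 14.3% and 14.7% at 3 days. Postn took 2.80%, 3.38% and 3.52% at 7 days and 0.754%, 0.734% and 1.44% at 3 days, again without overlap.

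The small leucine-rich proteoglycans took 5.95%, 11% and 7.62% at 7 days, against 18.6%, 19.1% and 22% at 3 days. Nid1 had 1.95%, 2.13% and 1.76% at 7 days, against 3.45%, 3.21% and 3.42% at 3 days. Both are lower shares at 7 days in every library. Of the proteoglycans, Bgn carries the separation. The share of Dcn overlapped, with 2.30%, 3.12% and 2.19% at 7 days and 3.09%, 6.34% and 4.70% at 3 days. The shares of Col3a1 and Col5a2 overlapped too, as did those of the FACIT and basement membrane collagens and the laminin chains. Shares within a library do not depend on how the libraries were scaled, but a fall in one gene raises the share of others, and they are given without a test.

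**Figure D4:**
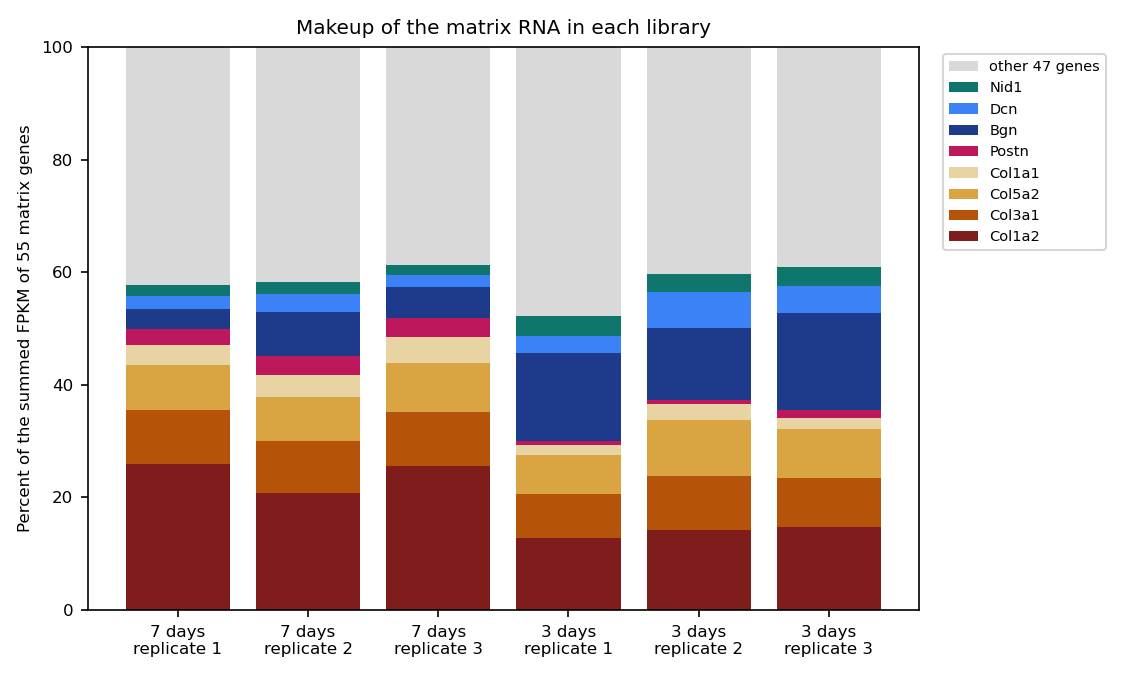
Percent of the summed FPKM of 55 matrix genes taken by 8 of them, stacked for each library, with the 3 libraries of 7 days left of the 3 of 3 days. Col1a2 takes between 20.8% and 25.9% at 7 days and between 12.8% and 14.7% at 3 days, while Bgn takes between 3.65% and 7.85% at 7 days and between 12.7% and 17.3% at 3 days.

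Of 23 collagen processing enzymes tested, 3 were called higher and 8 lower, with a median of -0.16, beside 18.8% higher and 20.3% lower of all genes tested. Bmp1, the procollagen C-proteinase, fell by 1.55 ± 0.29 on the log2 scale (adjusted p = 0.00628). Pcolce2, a second enhancer of that cleavage, fell by 1.48 ± 0.22 (adjusted p = 0.00269). Leprel2, a prolyl hydroxylase family gene, rose by 1.46 ± 0.19 (adjusted p = 0.00155), with 20.01, 18.3 and 21 FPKM at 7 days, against 4.67, 7.82 and 7.60 FPKM at 3 days.

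Of 12 collagen and laminin receptors tested, 2 were called higher and 4 lower, with a median of -0.79, beside the same 18.8% and 20.3% of all genes. Lair1, an inhibitory collagen receptor of immune cells, rose by 1.47 ± 0.10 (adjusted p = 2.37e-04), with 107, 95.5 and 98.4 FPKM at 7 days, against 33.5, 33.9 and 39.6 FPKM at 3 days. Ddr2, a collagen receptor kinase of stromal cells, fell by 1.19 ± 0.24 on the log2 scale (adjusted p = 0.00766), and Itgb4, a laminin-binding integrin chain, by 0.86 ± 0.25 (adjusted p = 0.0292). Itgb1, an integrin chain that most cells use, was listed at 0 in 3 of the 6 libraries, so a 0 in this table need not mean absence of RNA.

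Among 29 other matrix genes tested, 0 were called higher and 14 lower, with a median of -0.84, again beside 18.8% and 20.3% of all genes. Tnc, the injury-induced glycoprotein tenascin C, fell by 3.22 ± 0.39 on the log2 scale (adjusted p = 0.00134). It had 4.30, 8.57 and 4.02 FPKM at 7 days, against 33.5, 95.1 and 61.2 FPKM at 3 days. Thbs1, thrombospondin, and Fn1, fibronectin, both of which macrophages also make, fell by 2.29 ± 0.17 and 2.23 ± 0.17 (adjusted p = 2.74e-04 and 3.24e-04).

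The tables limit these values in a few ways. Genes at 1 FPKM or more numbered between 10248 and 10402 per library at 7 days and between 11147 and 11675 at 3 days, and the number of reads behind each value is unknown. For 34 of the 60 genes the authors' locus covers under 50% of the annotated gene, among them Col1a1, Col3a1, Col4a2, Col6a1, Hspg2, Lama1 and Pcolce, and the values refer to that locus. Of the 60 genes, 10 have a locus that overlaps the span of another annotated gene, among them Nid1, Lox, Col4a2, Col14a1 and Col18a1. Overlap of exons was not examined. Whether the counting used strand is not stated, so it is unknown whether such pairs share reads.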

How the data were processed

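Ribosome-bound RNA precipitated from the injury site was turned into sequencing libraries (ScriptSeq v2, per the labels' protocols), 3 libraries from 7 days and 3 from 3 days. The submitters' processing notes name TopHat2 2.0.12, Cufflinks 2.2, Cuffdiff 2.2.1 and build mm10, with no role or order. Per the file headers, the authors deposited, for each gene, FPKM per library, a mean FPKM per time, a log2 fold change, a test statistic (a score), a p-value and a q-value, in an unfiltered table and in a filtered one. How libraries were scaled to each other and how the table was filtered is not stated. FPKM keep no read numbers, so the depth is unknown and no counting interval is given.

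The unfiltered table was analysed, and 918 of 13960 rows were set aside: 838 where the mean over libraries differs from the deposited mean by more than 1%, 45 with a test status other than OK, 14 listed at 0 beside 100 FPKM or more in another library and 32 of repeated symbols, some for more than 1 reason. The other 13042 genes were tested with limma 3.58.1 (R 4.3.3) on log2(FPKM + 1), 7 days minus 3 days, two-sided, with a mean-dependent prior variance and Benjamini-Hochberg adjustment over all of them. No filter on low values was used. Fitted changes are given with their SE, and FPKM means with their SD. Sums, shares and figures were made with Python 3.11.15, pandas 2.3.3, numpy 2.4.6 and matplotlib 3.10.9. Gene spans come from GENCODE M21 and promoters from RefSeq. The fit was tested on simulated data with noise drawn independently for each gene and library. That simulation does not cover shifts that many genes of a library share, such as those described for single libraries above. The values of 1 gene that enters the counts are not reported here.

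The genes, the marker lists and the related lists were chosen with earlier results of these data known. Values per library are printed for called genes of each role group (up to 4, with a mean of 1 FPKM or more), for the most abundant tested gene of each group, for a set of scar genes and for genes set aside. From each related list up to 3 called genes with the largest changes are named. Col5a2, Col9a2, Col5a3, Lama5 and Col19a1, and Itgb1 in a related list, were named after their values were seen. Alternatives were other pseudocounts, filters on the mean, scalings, a block for the replicate number, a single prior variance, other handling of rows, the filtered table, the authors' q-value and leaving out each library.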

Additional observations from a re-analysis of the deposited data

How the results depend on the processing

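The count of genes called lower, 14, was between 13 and 21 under pseudocounts of 0.1 (17) or 0.5 (16), a mean of 1 FPKM or more (13), centring on the median gene (14), a single prior variance (17), no rows set aside (21 of 60), restored rows (19 of 55) and the authors' q (20). In those settings between 17.8% and 21.6% of all genes were called lower, and the 13 were of 34 genes tested. Under a mean of 5 FPKM or more 7 of the 18 genes tested were called lower, beside 14.9% of all genes. The filtered table gave 4 of 18, beside 15%, and quantile normalization 7 of 45, beside 13.9%. Without replicate 3 of 7 days together with replicate 2 of 3 days it was 9 of 45, beside 12.1%. Leaving out 1 library gave 6 to 17, beside 13% to 19.7% of all genes. The count called higher, 0, became 2 under quantile normalization (Col9a2 and Postn), 1 under centring and by the authors' q (Postn), and 0 to 1 with a library left out. Collagens called lower, 4, became 1 under the mean of 5 FPKM, 2 under quantile normalization, 0 in the filtered table, 7 with no rows set aside or with restored rows, and 2 to 6 with a library left out. Laminins, 1, became 2 with a pseudocount of 0.5 or a single prior variance, 3 with no rows set aside or restored rows, 0 under the mean of 5 FPKM and in the filtered table, and 1 to 2 with a library left out. The median of -0.62 became -1.01 with a pseudocount of 0.1 and by the authors' log2 changes, and ran from -0.76 to -0.50 with a library left out. It was -0.31 under quantile normalization and -0.53 with centring, while the median of all genes went with these scalings to 0.05 in both, against -0.04. The share of summed FPKM at 7 days, 0.0770%, became 0.105% over all rows and 0.0527% without Col1a2. At 3 days it was 0.155%, then 0.195% and 0.127%.

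Over all genes the calls were 2453 higher and 2645 lower, against 2305 and 1204 under the mean of 5 FPKM, 2317 and 1809 under quantile normalization, 2920 and 2321 with centring and 2359 and 1419 in the filtered table. Leaving out replicate 2 of 7 days gave 1572 and 1697, and leaving out both named libraries 1305 and 1582. The sign of Col1a1 (0.09) turned to -0.21 without replicate 1 of 3 days, -0.08 without replicate 3 of 3 days, -0.21 without replicate 3 of 7 days and -0.00896 in the authors' table, and reached 0.56 without replicate 2 of 3 days. That of Col1a2 (-0.03) turned to 0.0561 with centring, 0.28 without replicate 2 of 3 days, and 0.04 and 0.18 without replicate 1 or 2 of 7 days, and was -0.30 without replicate 3 of 7 days. Col6a1 (-0.18) ran from -0.47 without replicate 1 of 3 days to 0.32 without replicate 2 of 3 days, and was 0.19 without both named libraries. The cause of these turns was not tested.

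The labels number replicates 1 to 3 at each time, and the numbers were not found to pair the libraries. Deviations from the time means correlated across genes at 0.1, 0.005 and 0.005 for numbers 1, 2 and 3. The value for number 1 was the highest of all pairs, while libraries 2 and 3 correlated more with the other number (0.04 and 0.043). Correlations this low cannot exclude that the numbers pair the libraries. With the replicate number as a block, 13 genes were called lower, 1 higher (Postn, adjusted p = 0.0102), 2 collagens and 1 laminin, and over all genes 2450 higher and 2425 lower. The block ended the calls of Col4a2 (adjusted p = 0.0674), Fbln2 (0.0554) and Col5a3, and Serpinh1 was called lower (0.0169).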

Other observations

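Ratios between matrix genes within a library, which do not depend on scaling between libraries, are given as values with no test. The ratio of Col1a2 to Dcn was 11.2, 6.66 and 11.7 at 7 days, against 4.15, 2.25 and 3.13 at 3 days. The ratio of Postn to Dcn was 1.22, 1.08 and 1.61 at 7 days, against 0.244, 0.116 and 0.307 at 3 days, so the lowest library of 7 days is above the highest of 3 days in both. The ratio of Nid1 to Col1a2 was 0.0753, 0.103 and 0.0690 at 7 days, against 0.269, 0.225 and 0.232 at 3 days. The ratio of Serpinh1, the collagen chaperone, to Col1a2 was 0.0416, 0.0876 and 0.0473 at 7 days, against 0.111, 0.147 and 0.119 at 3 days. Col1a2 over Pdgfrb was 35.3, 32.9 and 67.2 at 7 days and 22.6, 22 and 19.5 at 3 days. The chains of type I collagen kept to each other, since Col1a2 over Col1a1 was between 5.24 and 7.08 at 7 days and between 4.94 and 7.55 at 3 days.

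Many matrix genes stand in the authors' table with a locus shorter than the annotated gene. The median share of the GENCODE gene span inside the locus was 39.1% for the 60 genes, against 99.2% for all genes tested, and 34 of 60 were under 50%, against 14% of all genes tested. Of the 16 genes tested whose locus covers 95% or more, 8 were called lower. Of 7 with 50 to 95% it was 3, and of 22 under 50% it was 3 (13.6%). The median of their mean FPKM was 1.24 in the last class, against 7.79 in the first class. Over all genes tested 20.3% were called lower, and shares of all genes in these classes were not computed. Col1a1 has 36.0% of its span, Col3a1 16.6%, Col6a1 8.0% and Col4a2 12.5%, against 98.9% for Col1a2, 99.9% for Nid1 and 99.7% for Bgn. The part of locus span in the levels and calls was not tested. The authors' filtered table keeps 25 of the 60 rows (41.7%), against 72.3% of all rows. Col1a2, Bgn, Col16a1, Lama1 and Postn are not in it.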
